A study of Mus musculus with 12 samples.

Results

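Pigr and Ceacam1 encode proteins of the mucosal surface of the gut, and the histone mark H3K4me3 was followed here at both genes from embryonic to adult mouse small-intestinal epithelium. H3K4me3, trimethylation of lysine 4 of histone H3, marks the promoters of active and poised genes, and long stretches of it often lie over highly used promoters. Each gene was taken as a fixed window in the mouse build mm9, whose placement was not checked against gene models of that build: chromosome 1 from 132718000 to 132733000 for Pigr and chromosome 7 from 26254000 to 26268000 for Ceacam1. Each window held 1 merged region, a stretch formed by joining the overlapping peaks of all libraries, so that the genes account for 2 of 24352 merged regions. Both genes were chosen from earlier results of these same libraries, for peak coverage in adult and in no embryonic list. The adult and embryonic values are therefore a description with no test.

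Pigr encodes the polymeric immunoglobulin receptor. Epithelial cells use it to carry polymeric IgA and IgM from the tissue to the lumen, where part of the receptor is released with the antibody as secretory component. Ceacam1 encodes an adhesion molecule of the carcinoembryonic antigen family that sits on the apical surface of enterocytes, can inhibit signalling through its cytoplasmic tail and is the entry receptor of mouse hepatitis virus. Both proteins span the membrane and carry immunoglobulin-like domains. In the RefSeq gene order, Pigr lies between Fcamr and Fcmr, which encode other Fc receptors for IgM, with AA986860 and Il24 as the next protein-coding genes on either side. Ceacam1 lies between Cxcl17, which encodes a mucosal chemokine, and its paralog Ceacam2, with Lipe and Erich4 beyond them. Ceacam1 and Ceacam2 are similar in sequence, and whether reads that match both were lost from the Ceacam1 peak was not tested.

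The promoters are shown because H3K4me3 is a promoter mark and peaks were called in the windows of both genes. RefSeq gives 1 promoter for each, from 250 bases before to 50 bases after the transcript start, in the build GRCm38.p6: chr1:130826434-130826733 on the plus strand for Pigr and chr7:25477576-25477875 on the minus strand for Ceacam1. Positions were not converted between builds, so where these bases lie inside the mm9 peaks was not determined. Both are written 5′ to 3′ in the direction of transcription, and capitals mark the E-box CACGTG.
Pigr promoter: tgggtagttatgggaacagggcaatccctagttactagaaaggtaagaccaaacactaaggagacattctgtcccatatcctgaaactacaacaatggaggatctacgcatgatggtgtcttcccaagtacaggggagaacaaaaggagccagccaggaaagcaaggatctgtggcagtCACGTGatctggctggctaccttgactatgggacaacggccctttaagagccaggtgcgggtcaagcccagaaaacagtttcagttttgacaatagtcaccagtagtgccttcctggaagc
Ceacam1 promoter: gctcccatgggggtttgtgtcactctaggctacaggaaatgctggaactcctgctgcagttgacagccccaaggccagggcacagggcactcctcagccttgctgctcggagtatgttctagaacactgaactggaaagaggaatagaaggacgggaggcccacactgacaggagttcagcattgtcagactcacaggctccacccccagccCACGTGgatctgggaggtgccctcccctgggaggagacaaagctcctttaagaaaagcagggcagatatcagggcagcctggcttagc

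Each promoter held 1 E-box of the form CACGTG, a site read by basic helix-loop-helix factors such as USF. Other forms of the E-box were not searched. The CACGTG match began 71 bases before the transcript start in Pigr and 38 bases before it in Ceacam1. Of 32817 promoters of the same length, 7.15% held this motif, which reads the same on both strands. On neither strand did either sequence hold the other motifs searched. The core of the interferon-stimulated element was found in 3.43% of all promoters. The core read by CDX factors, TTTATNG, was found in 10.9% of them. For the zinc-finger factors of the intestinal endoderm, the motif AGATAAG was found in 3.05%. The GC box, GGGCGG, was found in 35.6%, and the last motif, the TATA box in its form TATAAA, in 13.6%. A missing motif says only that these letters are not in the window. Both promoters were poor in CpG. Pigr had 4 CpG in 300 bases, an observed over expected ratio of 0.224, and Ceacam1 had 3, a ratio of 0.122, beside a median ratio of 0.383. Of all promoters, 32.2% had a lower ratio than Pigr and 16.6% a lower one than Ceacam1. By GC content they stood on either side of the median of 52.7%, with 49.0% for Pigr and 57.3% for Ceacam1.

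The mark was read from 8 libraries made by ChIP-seq, which sequences the DNA that an antibody to H3K4me3 pulls down, with 2 libraries in each of 4 groups of mice of a mixed C57BL/6 CD1 strain. The embryonic groups were epithelium of the small intestine at E12.5 and E14.5, sorted as EpCAM+ cells without CD31, CD45 or DAPI staining. The adult groups came from Lgr5EGFP-Cre-ERT males of 2 months (P60): stem cells with high Lgr5-EGFP, in which the Lgr5 locus drives the reporter (ISC), and enterocytes sorted as EpCAM+ cells without the same 3 stains. The labels give neither the genotype or sex of the embryos nor the number of animals behind a library. Age, genotype and the way the tissue was dissociated therefore cannot be told apart between embryonic and adult groups, and each group was called against an input of its own. The sorted cell types were not checked at marker genes, since gene positions in mm9 were not used here. Depth ranged from 12821255 tags in enterocyte replicate 1 to 43259380 in E14.5 replicate 1.

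At Pigr, adult epithelium carried a long H3K4me3 domain where no embryonic list held a peak. The covered length, the bp under peaks of a library, was 5064 bp for ISC replicate 1, 5584 bp for ISC replicate 2, 4609 bp for enterocyte replicate 1 and 3906 bp for enterocyte replicate 2. It was 0 bp in both E12.5 and both E14.5 libraries. The group means were 5324 bp ± 368 (SD, n = 2) in ISC and 4257.5 bp ± 497 in enterocytes. Every adult library had 1 unbroken peak. The separation from the embryonic libraries is the pattern for which the gene was chosen.

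Ceacam1 showed the same division over a shorter stretch. Its covered length was 2952 and 3458 bp in ISC and 3354 and 3483 bp in enterocytes, again as 1 peak per library, and 0 bp in all 4 embryonic libraries. The means were 3205 bp ± 358 (SD, n = 2) in ISC and 3418.5 bp ± 91.2 in enterocytes. Pigr was longer than Ceacam1 in every adult library. In sorted but mixed cells, fewer marked cells and less of the mark per cell cannot be told apart.

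**Figure D1:**
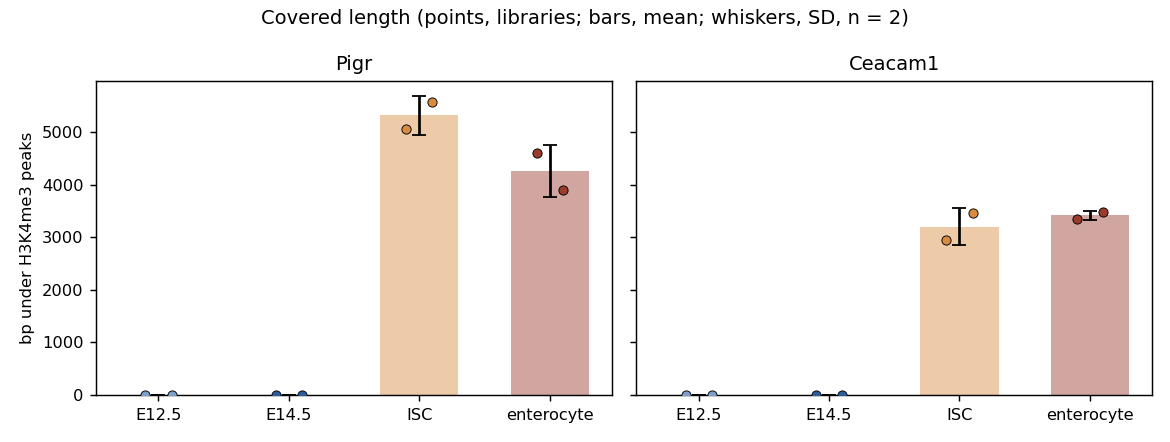
Length in bp under H3K4me3 peaks at Pigr (left) and Ceacam1 (right) in each group; points are libraries, bars are means and whiskers are SD (n = 2). All 4 embryonic libraries are at 0 bp, and the adult libraries lie between 3906 and 5584 bp at Pigr and between 2952 and 3483 bp at Ceacam1.

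Depth and list length differed between the libraries, and their part in the 0 bp of the embryonic lists was not tested. E14.5 replicate 1, the deepest library of all, had no peak in either window, while ISC replicate 1 with 13355462 tags and enterocyte replicate 1 with 12821255 tags had one in both. E12.5 replicate 1 had the shortest list, 11111 peaks, and the lowest median −log10 q, 5.84, where the other lists had medians of 9.40 to 31.4. The embryonic lists reached down to a −log10 q of between 1.01 and 1.03 and to peaks of 132 to 190 bp. The adult peaks had a −log10 q of 10.2 and 17.6 in ISC and 11.6 and 16.4 in enterocytes at Pigr, and of 7.44 and 11.3 in ISC and 13.5 and 18.4 in enterocytes at Ceacam1. These are the authors' values for each peak against input. A window without a peak is one where the authors' caller reported nothing, which does not prove that the mark was missing there.

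A peak in all 4 adult and in no embryonic library was found in 177 of the 24352 merged regions (0.727%), and this share is a background for a contrast that the choice of the genes used. Among the 177, Pigr had the longest mean covered length over the adult libraries, 4790.75 bp, and Ceacam1 ranked 4 with 3311.75 bp. The median of the 177 was 950.5 bp. In ISC alone the genes ranked 1 and 2, and in enterocytes alone 6 and 17. These ranks are within each group and do not measure a change between the groups. Since the genes were chosen for adult coverage, their ranks by length are a description with no test. Without ISC replicate 1 the class held 355 regions.

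Each peak ranked higher in its list by length than by −log10 q. At Pigr, 0.303% and 0.352% of the peaks of ISC replicates 1 and 2 were wider (ranks 41 and 56), and 0.876% and 2.21% of those of enterocyte replicates 1 and 2 (ranks 103 and 378). By −log10 q, between 35.1% and 55.3% of the peaks of the same lists ranked above it. In length the Pigr peak was between 3.79 and 4.87 times the median peak of its list.

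The Ceacam1 peak ranked 412 and 378 by width in ISC and 408 and 550 in enterocytes, with between 2.41% and 3.49% of peaks wider. By −log10 q, 61.5% and 63.4% of the ISC peaks ranked above it, and 24.5% and 52.8% of the enterocyte peaks. Its fold enrichment over input was 5.68 and 5.69 in ISC and 8.01 and 8.45 in enterocytes. A higher fold was found for 49.2% and 58.0% of the peaks of the same ISC list, and for 5.32% and 33.6% of those of the enterocyte lists. For Pigr the fold was 6.56 and 7.03 in ISC and 7.02 and 7.40 in enterocytes, with 28.8% and 45.6% of the peaks of the ISC lists and 13.3% and 43.6% of those of the enterocyte lists above it. Folds and q-values depend on each library's depth and input, so at these genes they were not compared between lists. They are means over a whole broad peak.

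**Figure D2:**
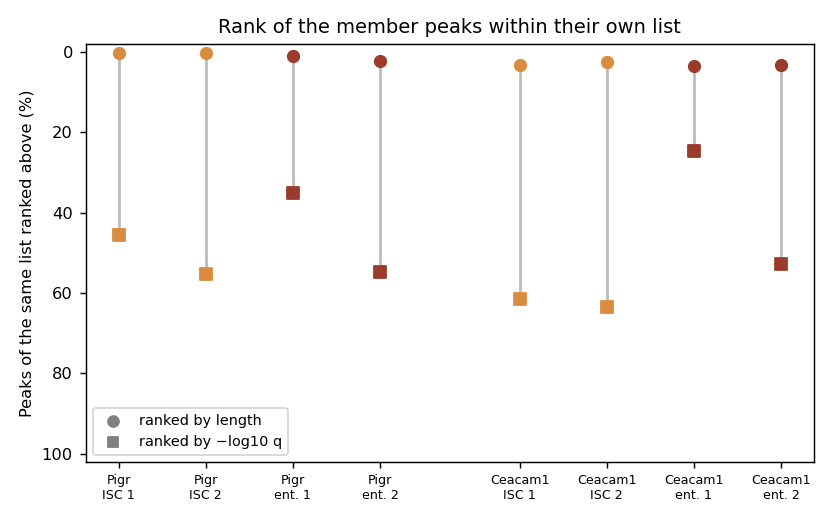
Share of peaks of the same list that ranked above the Pigr or Ceacam1 peak (vertical axis, percent, 0 at the top), by length (circles) and by −log10 q (squares), in the 4 adult libraries. By length no more than 3.49% of a list ranked above either peak, while by −log10 q between 24.5% and 63.4% did.

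Between ISC and enterocytes, neither covered length passed the test. The difference between these groups did not choose the genes, but coverage in adult lists did. A peak missing from either group was therefore unlikely from the outset. At Pigr both enterocyte libraries (4609 and 3906 bp) were shorter than both ISC libraries (5064 and 5584 bp). The log2 difference, enterocyte minus ISC, was -0.27 ± 0.17 (SE), with a 95% interval from -0.70 to 0.16 (limma, adjusted p = 0.486). That is a fitted ratio of 0.828. Of the 10387 regions called in all 4 adult libraries, 23.3% likewise had both enterocyte libraries shorter than both ISC libraries and 20.7% the reverse, so that the order at Pigr was a common one.

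At Ceacam1 the ISC libraries (2952 and 3458 bp) and enterocyte libraries (3354 and 3483 bp) overlapped. The log2 difference was 0.13 ± 0.15 (SE), with an interval from -0.25 to 0.51 (limma, adjusted p = 0.752), and turned to -0.07 with quantile normalization. Over all 17679 regions tested in the same fit, 1330 (7.52%) passed the threshold of 0.05, of which 769 (4.35% of those tested) were longer and 561 (3.17%) shorter in enterocytes. These counts were unstable, at 401 longer and 1710 shorter without enterocyte replicate 2 and at 103 and 15 with ISC and enterocyte libraries alone. Of the 2 genes, 0 passed, and the unadjusted limma p was 0.171 for Pigr and 0.420 for Ceacam1. The embryonic libraries, all at 0 bp at both genes, entered these errors with no spread, so the errors may be too small. Without them the error was larger at Pigr and smaller at Ceacam1. With ISC and enterocyte libraries alone the interval ran from -0.89 to 0.29 for Pigr (-0.30 ± 0.21 SE, adjusted p = 0.527) and from -0.21 to 0.42 for Ceacam1 (0.10 ± 0.11, adjusted p = 0.683), both with limma. The test does not show that the domains were equal in the 2 cell types. The difference at Pigr was -0.46 without enterocyte replicate 1 and -0.06 without enterocyte replicate 2.

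**Figure D3:**
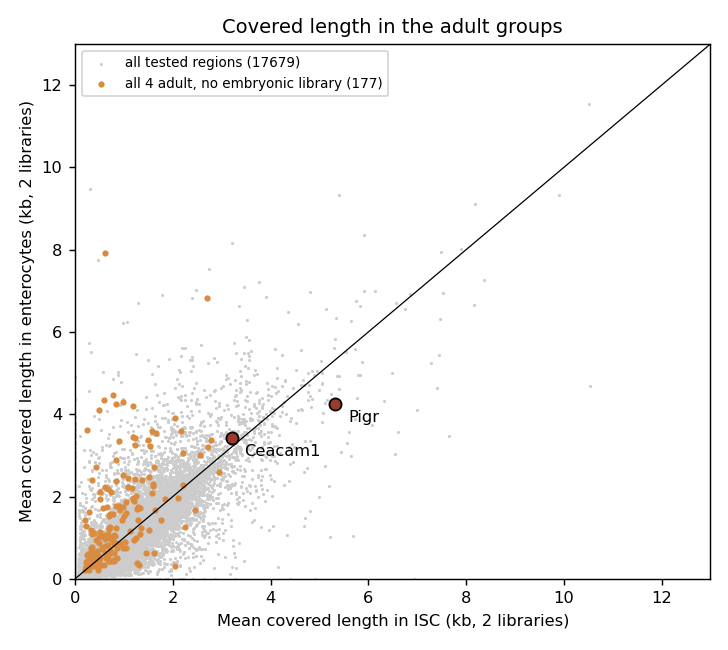
Mean covered length in ISC (horizontal axis, kb) against enterocytes (vertical axis, kb), for the 17679 tested regions (grey), the 177 called in all adult and no embryonic libraries (orange) and the named genes (red); the line marks equal length. Pigr lies below the line at 5324 and 4257.5 bp, and Ceacam1 close to it at 3205 and 3418.5 bp.

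The ends of the domains differed in how far they varied. Pigr is transcribed towards higher positions, so the starts of its peaks are their 5′ side in the direction of transcription. They were 132722859 and 132722753 in ISC and 132722892 and 132723233 in enterocytes, a range of 480 bp. On the 3′ side the ends were 132727922 and 132728336 in ISC and 132727500 and 132727138 in enterocytes, a range of 1198 bp. The ISC ends lay outside the enterocyte ends on both sides, by a mean of 810 bp on the 3′ side and 256.5 bp on the 5′ side. Among 10009 regions with 1 peak in each adult library, 6.71% had the ISC ends outside the enterocyte ends on both sides, and of their 20018 single ends 22.5% had the ISC ends outside. With 2 libraries a group, no test of the ends was made.

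Ceacam1 is transcribed towards lower positions, so the ends of its peaks are their 5′ side. They were within 93 bp of each other, at 26262618 and 26262631 in enterocytes and at 26262644 and 26262711 in ISC. The 3′ side was less fixed: the peaks started at 26259693 and 26259254 in ISC and at 26259265 and 26259149 in enterocytes, a range of 544 bp. The median range over the ends of all such regions was 248 bp. Of these ends, 12.3% had a smaller range than the 5′ side of Ceacam1, 80.4% a smaller one than its 3′ side, 76.4% a smaller one than the 5′ side of Pigr and 96.0% a smaller one than the 3′ side of Pigr. The stretch covered in all 4 adult libraries was 3906 bp at Pigr, 70.0% of the whole region, and 2926 bp at Ceacam1, 82.1% of it.

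**Figure D4:**
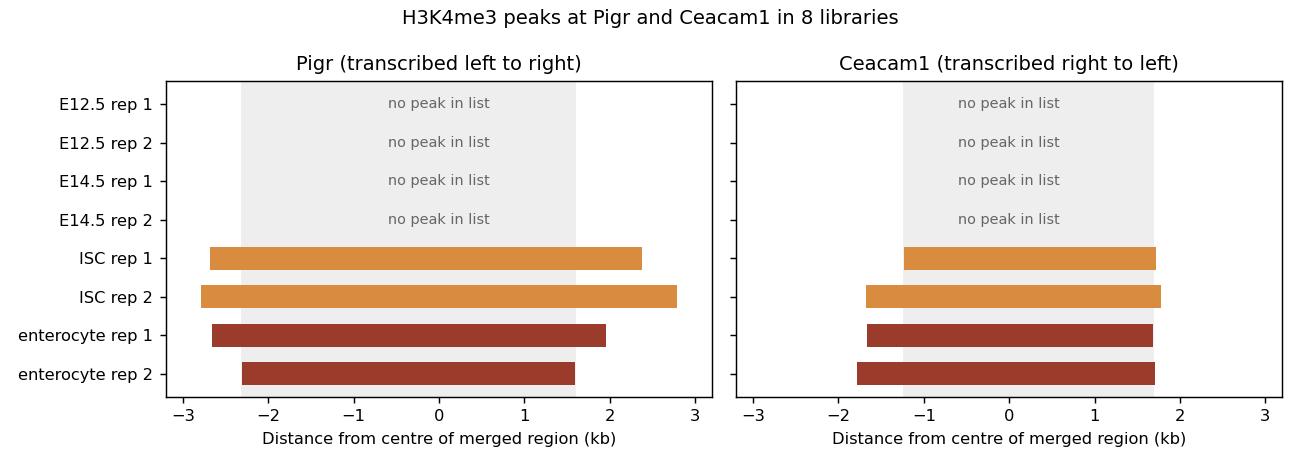
Extent of the H3K4me3 peak in each of the 8 libraries at Pigr (left) and Ceacam1 (right), as distance in kb from the centre of the merged region; grey marks the stretch covered in all adult libraries (3906 and 2926 bp). The right ends at Ceacam1, the 5′ side in the direction of transcription, fall within 93 bp, and the right ends at Pigr, the 3′ side, spread over 1198 bp.

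Embryonic libraries had peaks within 100 kb of both windows, but not close by. Their nearest peak was 46.5 kb from the Pigr region and 77.8 kb from the Ceacam1 region. Within 100 kb of the Pigr window, a region from 132627891 to 132632489 of chromosome 1, 90.3 kb to the low side, had peaks in all 8 libraries. It was covered over 1705.5 bp ± 465 (SD, n = 2) at E12.5, 4273.5 bp ± 64.3 at E14.5, 2160.5 bp ± 1289 in ISC and 3476 bp ± 194 in enterocytes. On the high side, 46.5 kb away, a short region from 132774792 to 132775184 had the reverse pattern to Pigr. It was covered over 242 and 208 bp in the E12.5 libraries and 374 and 367 bp in the E14.5 libraries, and had no peak in any adult library. A peak in all 4 embryonic and no adult libraries was found in 1.5% of merged regions. The nearest adult peak on that side was between 264.5 and 264.9 kb from Pigr. The other 3 regions near Pigr were called in 1 adult library each, over 178 to 315 bp.

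At Ceacam1, the nearest peak on the low side was in the same region in all 8 libraries, from 26178878 to 26181337 of chromosome 7, 77.8 kb away. It was covered over 756.5 bp ± 3.54 (SD, n = 2) at E12.5, 1483.5 bp ± 92.6 at E14.5, 1233 bp ± 294 in ISC and 2236.5 bp ± 101 in enterocytes. Next to it, from 26171425 to 26175488, a region was called in enterocytes alone, over 3234 and 3340 bp. Farther out, 2 short regions were called in E14.5 libraries alone, over 176 to 383 bp. No library had a peak on the high side within 100 kb. These neighbours are given by position, since no gene was assigned to them in mm9.

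**Figure D5:**
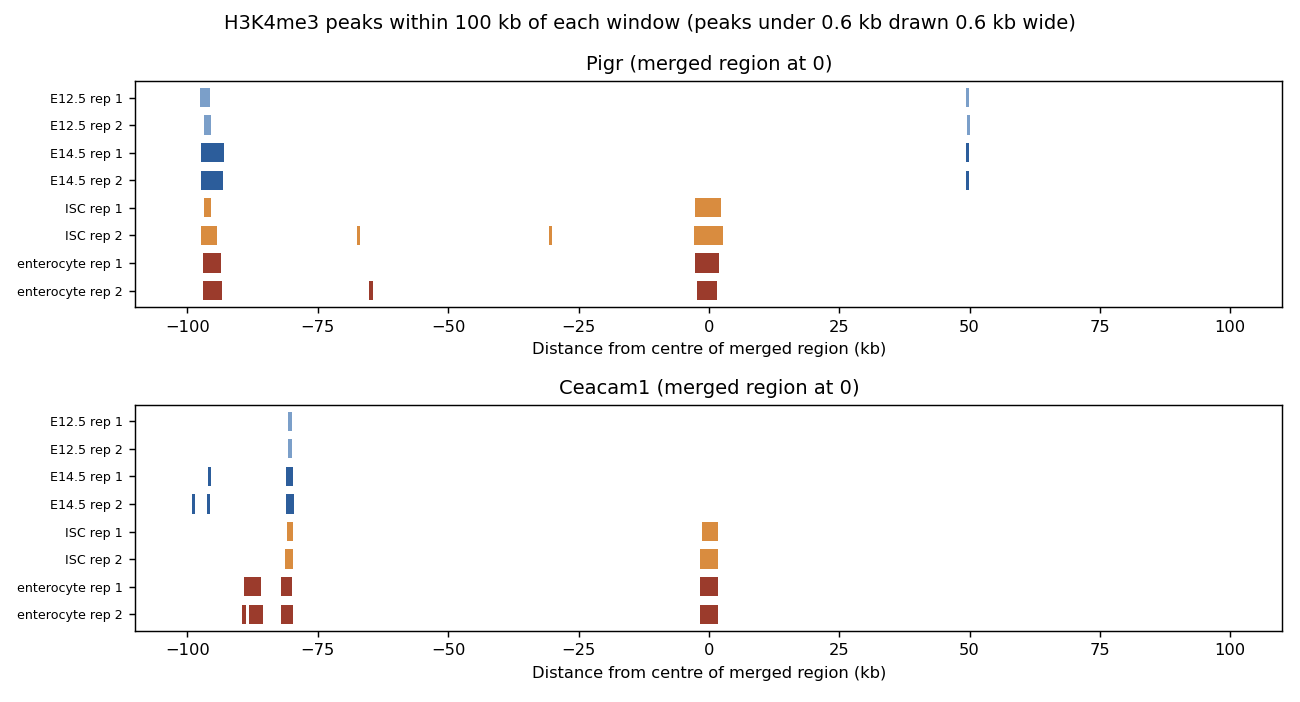
H3K4me3 peaks within 100 kb of the Pigr (top) and Ceacam1 (bottom) windows in each library, as distance in kb from the centre of the merged region, with peaks under 0.6 kb drawn wider than they are. The peaks 90.3 kb to the left of Pigr and 77.8 kb to the left of Ceacam1 are present in all 8 libraries, the short peak 46.5 kb to the right of Pigr in the 4 embryonic ones, and the peaks at 0 in the 4 adult ones (distances between region ends).

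By covered length over the 8 libraries, the region most like Pigr was that of Ceacam1. Both genes were chosen together for coverage in adult and in no embryonic library, and the measure rests on those same values, so this likeness describes the choice and supports nothing further. Likeness was the Euclidean distance of scaled log2 covered length, on which the genes were 1.10 apart and 0 of the other regions came nearer to Pigr. Nearer to Ceacam1 than Pigr were 8 regions. Apart from each other, the genes had the same 3 nearest regions in the same order: chromosome 2 from 145685723 to 145689152, chromosome 11 from 66769945 to 66773960, and chromosome 5 from 137443042 to 137446436. Their distances were 0.35, 0.43 and 0.53 from Ceacam1, and 1.42, 1.45 and 1.62 from Pigr. All 3 were covered over 0 bp in every embryonic library. The first had a mean of 2728 bp ± 62.2 (SD, n = 2) in ISC and 3215 bp ± 109 in enterocytes, the second over 2789.5 bp ± 448 and 3371 bp ± 882, and the third over 2548.5 bp ± 241 and 3006.5 bp ± 445. In these 3 regions the mean was longer in enterocytes, as it was at Ceacam1 and not at Pigr, and none of these differences was tested for these regions.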

How the data were processed

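The deposited files are 1 list of H3K4me3 peaks for each library, and replicates were called separately. As the headers state, the authors called peaks with MACS 2.0.10.20130712 in broad mode at a q-value cutoff of 0.01, with at most 2 tags per position and the same input for both libraries of a group. The submitters' processing notes name bcl2fastq 1.8.4, Bowtie 1.1.2, SAMtools 1.2 and the build mm9. Deposited for each peak are a pileup signal (coverage), a −log10 p-value, a −log10 q-value and a fold enrichment as a ratio over input. The lists also hold broad peaks with a q above that cutoff, under a limit the headers do not state. Depth is the number of tags after filtering in the headers, and no read counts per region were used. The 4 inputs entered only through the authors' calls.

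Peaks of the 8 lists that overlapped or touched were merged, and the bp under peaks were summed per library. Those with a peak in 2 or more libraries entered a fit with limma 3.58.1 (R 4.3.3, trended prior, all 4 groups) on log2(covered bp + 200) after median scaling over regions called in all 8 libraries, two-sided, with Benjamini-Hochberg adjustment over 17679 regions. Log2 changes understate those of short regions. In data simulated for enterocytes against ISC over 17654 regions, 45 of 100 changes of 1 and 72 of 100 changes of 2 on the log2 scale were recovered. The changes were placed only in regions with longer ISC coverage, so the shares recovered among short regions are not known. Of 139 calls, 22 were false, a share above the 0.05 that the threshold aims at. GEO's design field speaks of biological duplicates, and the labels do not say whether they came from separate animals, so p-values measure the spread between these libraries.

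The genes, windows, lists and tests were chosen with earlier results of these data known. Named regions are the 3 with the smallest distance to each gene and all within 100 kb of a window, and named neighbouring genes are the 2 nearest protein-coding ones on each side in the GRCm38.p6 table. A planned list of other mucosal genes and of cell type markers was not analysed here, since no mm9 annotation was used. Alternatives were other pseudocounts, scalings, library minimums and peak filters, the replicate number as a block, and each library left out.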

Additional observations from a re-analysis of the deposited data

How the results depend on the processing

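In all 18 alternatives the enterocyte and ISC lengths of Pigr and of Ceacam1 stayed short of the limma threshold (adjusted p from 0.297 to 0.998 and from 0.479 to 1). Pigr kept its sign, with log2 differences between -0.46 and -0.06 over libraries left out in turn. Ceacam1 ranged from 0.08 to 0.20 there, and was -0.066 with quantile normalization. Keeping a −log10 q of 10 or more left out the ISC replicate 1 peak of Ceacam1, so that its ISC mean was 1729 bp and its log2 difference 2.15. Under this filter Ceacam1 was no longer called in all adult libraries, while Pigr still was. List medians of −log10 q ran from 5.84 to 31.4, so the filter cut the lists unequally. With the replicate number as a replicate block, the log2 differences were -0.27 and 0.13 (adjusted p = 0.445 and 0.755), with 701 regions longer and 494 shorter in enterocytes. Same-numbered libraries deviated together with correlations from 0.02 to 0.31, the highest between replicate 1 of ISC and replicate 1 of enterocytes. Replicate 1 was the shallower library in both of these groups and also at E12.5, but not at E14.5. For E12.5 replicate 1 the correlations with replicate 1 of ISC and of enterocytes were 0.12 and 0.17. Whether depth had a part in these correlations was not tested. The number was not taken to pair the libraries. The counts of regions longer and shorter in enterocytes, 769 and 561, were 307 and 348 where 4 or more libraries had a peak, 146 and 23 with a −log10 q of 10 or more, and 103 and 15 with ISC and enterocyte libraries alone. Over libraries left out they ranged from 290 (without enterocyte replicate 1) to 818 and from 212 (without E14.5 replicate 1) to 1710 (without enterocyte replicate 2). The 177 regions called in all adult and no embryonic libraries became 314 in lists of equal number and 6 with a −log10 q of 10 or more. They ranged from 177 to 355 (without ISC replicate 1) over libraries left out. Leaving a library out could only keep or raise this count, so its lower limit was fixed in advance. With 2 libraries a group, real differences in length could go uncalled. In the simulated data only 45 of 100 changes of 1 and 72 of 100 changes of 2 on the log2 scale were recovered. Peak lists set no limit on the mark where nothing was called.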
